A study of Mus musculus with 8 samples.

Results

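The ubiquitin-specific protease genes, named Usp followed by a number, were described in mouse embryos at the 2-cell stage labelled wild type or Brg1 mutant. Members were the genes that the array's annotation pairs with a probe set under a single Usp symbol, without the sex-chromosome pair Usp9x and Usp9y, and each was represented by its brightest probe set (highest log2 signal averaged over the 8 arrays). This gave 49 genes on 120 probe sets, of 18193 genes named by a single symbol on the array. They were compared between 4 samples labelled wild type and 4 labelled Brg1 mutant, each made from 20 whole embryos, so every value is an average over pooled embryos. BRG1, encoded by Smarca4, is the ATP-hydrolysing subunit of SWI/SNF (BAF) chromatin remodellers, and the series title speaks of maternal BRG1 and of activation of the zygotic genome. The strain, the allele, any Cre driver and any treatment shared by both groups are not given in the sources used here. A pair of names in the set do not stand for proteases: Usp6nl encodes a GTPase-activating protein of Rab proteins, and Usp46os2 is a long non-coding RNA in RefSeq, while the other members were listed as protein-coding.

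Ubiquitin-specific proteases form the largest family of deubiquitinating enzymes. They are cysteine proteases that cut ubiquitin from proteins or take ubiquitin chains apart, and so oppose ubiquitin ligases in protein turnover, chromatin regulation, DNA repair and receptor sorting. In the oocyte and early embryo, turnover of maternal proteins through the ubiquitin-proteasome system accompanies the start of embryonic transcription, and Usp17l genes belong to the transcripts known from 2-cell embryos and 2-cell-like stem cells.

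The labels were first checked on Smarca4. Its brighter probe set read 796, 632, 612 and 661 in wild type and 388, 201, 273 and 291 in mutant samples, so the groups did not overlap (log2 change -1.26, limma adjusted p = 0.0211). The second probe set did not pass (log2 change 0.04, limma adjusted p = 0.963). Oocyte and embryo markers were above a background bound in every sample, 14 or 15 of 15 genes, where the bound is the 95th percentile of 27 bacterial control probe sets on that array. Mutant replicates 3 and 4 stood apart. Across genes, their correlation was 0.747 to 0.758 with wild type arrays, 0.738 to 0.774 with the other mutant arrays and 0.969 with each other, where wild type arrays reached 0.916 to 0.969 among themselves. The summed signal of 15 granulosa and cumulus cell markers was 20848 and 17067 in these samples and between 631 and 909 in the other 6. Of the 15, 14 exceeded the bound, against 6 to 12 in the others, but the bound itself was lowest on these arrays. It stood at a signal of 14.73 and 16.13, against 16.35 to 37.7 on the others. Few genes carried the sum. Vim read 4526 and 3107, Hsd3b1 8835 and 6889, Inha 2619 and 2364, Inhba 2516 and 2383 and Fst 1290 and 1308. Cyp11a1 at 30.1 and 39.4 stayed in the range of the other samples, as did Amh and Ptgs2. Mutant replicates 1 and 2 carried hybridisation control signal (18 probe sets) at 4.81 and 3.37 times its mean in wild type and a summed oocyte marker signal of 57396 and 64585, against 25153 to 36751 in wild type. In mutant replicates 3 and 4 this sum was 30509 and 27175. Oosp1 alone read 21369 and 19965 in replicates 1 and 2, against 5703 to 8216 in wild type. Ooep stayed inside its wild type range there, and Zar1 was higher in all 4 mutant samples (2066 to 2820, against 337 to 411). The ratio of 3 prime to 5 prime signal of actin was 16.3 to 21.1 in wild type and 4.88 to 15 in mutant samples. The part of these array differences in the Usp values was not tested, and results are also given for the mutant pairs apart where the call differs between them. In pooled embryos, fewer cells of a type and less RNA per cell cannot be told apart.

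Of the 49 Usp genes, 45 had a probe set bright enough to be tested. Usp27x, Usp46 and Usp50 fell in the mutants, and the other 42 did not pass. These 3 are 6.67% of the tested members, close to the 7.04% of all 11934 tested genes that passed, of which 4.03% were lower and 3.01% higher. By limma, 0 members rose after adjustment, while 13 were lower and 1 higher at an unadjusted p under 0.05. That level was reached by 31.1% of members and by 27.0% of all tested genes. The share of 27.0% belongs beside every unadjusted count of the main fit given below. A lean towards lower signal was seen in the whole set. The median log2 change of the 45 members was -0.28, against -0.05 over all tested genes, and 31 members had a negative and 14 a positive change (68.9% negative, against 53.2% of all tested genes). The groups did not overlap for 12 members. All 4 mutant samples lay below all wild type samples for 11 of these (24.4%, where the share over all tested genes was 10.6%) and above them for 1 (2.22%, against 8.1%). These shares are descriptions of the set, not tests of it. The count of 3 depended on single samples: it was 0 or 1 without any 1 wild type sample, 1 without mutant replicate 3 or 4, 5 without mutant replicate 1 and 7 without mutant replicate 2. With no filter on dim probe sets, or with no intensity trend in the fit, it was 2. The count over all 22518 tested probe sets also moved. It was 1478 with all samples and between 73 and 442 without 1 wild type sample. Without mutant replicate 1 it was 2709, and without mutant replicate 2 it was 2926.

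**Figure D1:**
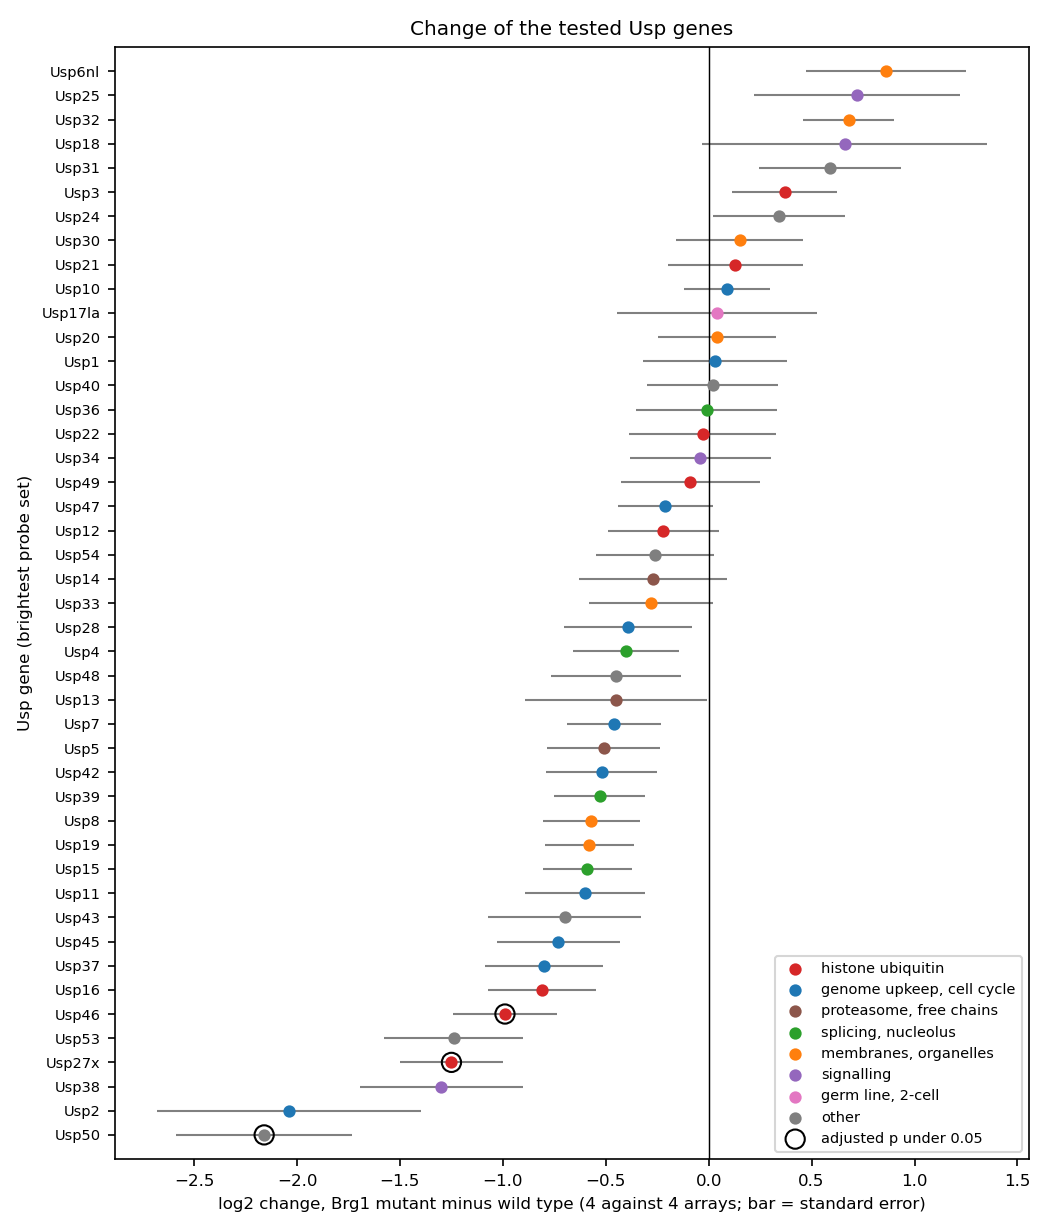
Log2 change between Brg1 mutant and wild type samples (x axis, mutant minus wild type, 4 against 4 arrays) for the 45 tested Usp genes (y axis, brightest probe set each), with the standard error as a bar and the role group as colour. Usp27x, Usp46 and Usp50 carry a ring for an adjusted p under 0.05, and 31 of the 45 points lie left of 0.

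The pairs of mutant samples gave different pictures. Without mutant replicates 3 and 4, 2 members were lower (Usp27x and Usp50) and 2 were higher (Usp1 and Usp31), together 8.89% of members where 7.44% of all genes passed (3.58% lower and 3.86% higher). The median change was then -0.25 for members and 0.04 for all genes. Without mutant replicates 1 and 2, 20 members were lower and 3 were higher, together 51.1%, where 43.5% of all genes passed (24.4% lower and 19.2% higher), at medians of -0.53 and -0.19. The higher ones were Usp18, Usp32 and Usp6nl. Both fits use the same wild type samples and are therefore not independent of each other. Mutant replicates 3 and 4, the samples with granulosa marker signal, lay below all wild type samples for 25 members (55.6%, against 35.4% of genes) and above them for 5 (11.1%, against 25.8%). Mutant replicates 1 and 2 lay below for 15 members (33.3%, against 16.4%) and above for 7 (15.6%, against 20.3%).

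**Figure D2:**
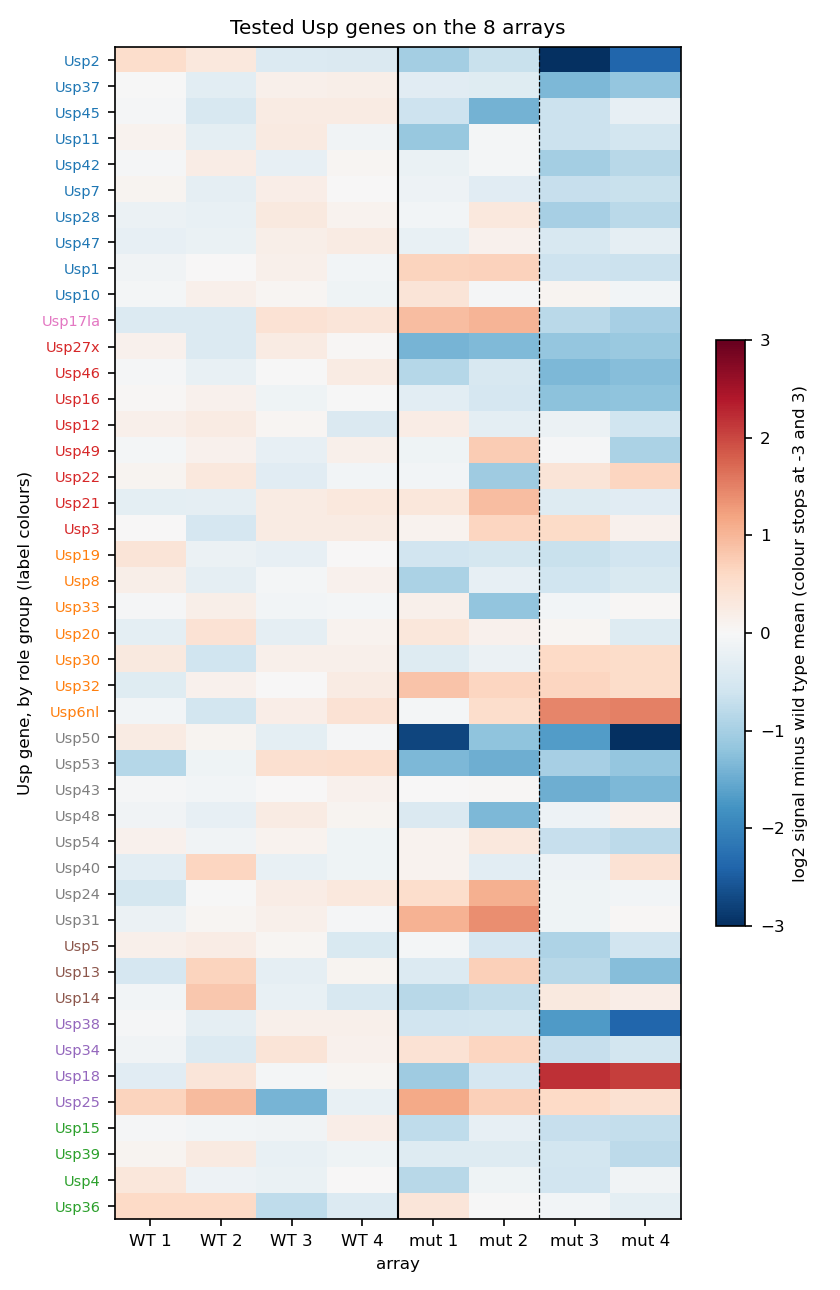
Log2 signal of the 45 tested Usp genes (y axis, grouped by role, label colours) on the 8 arrays (x axis), as the difference from the wild type mean of that gene, with colour limits at -3 and 3. Usp27x, Usp46, Usp50 and Usp16 are lower on every mutant array, while Usp1, Usp17la and Usp34 are higher on mutant arrays 1 and 2 and lower on 3 and 4.

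Usp27x and Usp46 were grouped with proteases known to act on ubiquitinated histones, in role groups chosen with earlier results of these data known. The median log2 change of this group was -0.16, against -0.28 for all tested members, so the group as a whole was not lower than the set. Usp27x, a paralogue of the SAGA protease USP22 that works with the same adaptor proteins, read 182, 127, 200.5 and 171 in wild type and 63.3, 66.9, 74.6 and 78.1 in mutant samples. The mutant values lay close together and all were below the lowest wild type value. The mean was 170 ± 31.4 against 70.7 ± 6.81 (SD, n = 4 each), a 2.38-fold fall (log2 change of -1.25 with an SE of 0.25, limma adjusted p = 0.0216). Both mutant pairs gave the call on their own, with log2 changes of -1.37 without mutant replicates 3 and 4 (limma adjusted p = 0.0233) and -1.14 without 1 and 2 (limma adjusted p = 0.00597). A second, dimmer Usp27x probe set read 58.9 to 91.6 in wild type and 66.2 to 98.9 in mutant samples and did not pass (log2 change 0.19, limma adjusted p = 0.722), so the probe sets of this gene disagree. The mean of both probe sets did not pass either (log2 change -0.53, limma adjusted p = 0.16). Leaving out wild type replicate 1, 3 or 4 or mutant replicate 3 ended the call (limma adjusted p = 0.0843, 0.0771, 0.0747 and 0.0548).

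Usp46 encodes a close relative of USP12 that is activated by the WD-repeat protein WDR48. It read 1614, 1419, 1649 and 1949 in wild type and 914, 1178, 646 and 678 in mutant samples, with no overlap and the lowest values in mutant replicates 3 and 4. The mean fell from 1657 ± 219 to 854 ± 247 (SD, n = 4 each), 1.99-fold (log2 change -0.99, SE 0.253, limma adjusted p = 0.0442). The mutant pairs differed in the call. Without mutant replicates 3 and 4, the samples with granulosa marker signal, the log2 change was -0.67 and did not pass (limma adjusted p = 0.102). Without 1 and 2 it was -1.31 (limma adjusted p = 0.000466). A second Usp46 probe set was also lower on average but missed the threshold (log2 change -0.81, limma adjusted p = 0.137), with mutant replicate 2 inside the wild type range. Leaving out any wild type sample, or mutant replicate 3 or 4, ended the call (limma adjusted p from 0.0767 to 0.138), as did testing without a filter (limma adjusted p = 0.0644), a fit with no intensity trend (limma adjusted p = 0.0611) and the mean of both probe sets (limma adjusted p = 0.0822).

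Usp16, which removes ubiquitin from histones before mitosis, read 2284, 2463, 2046 and 2209 in wild type and 1808, 1589, 961 and 976 in mutant samples. The groups did not overlap, but the change did not pass (log2 change -0.81, limma adjusted p = 0.0909), and it was -0.41 without mutant replicates 3 and 4 (limma adjusted p = 0.223) against -1.21 without 1 and 2 (limma adjusted p = 0.000335). Its dimmer probe set, also without overlap, had a log2 change of -1.22 (limma adjusted p = 0.0618). Of 9 histone-directed members, 8 were tested, with a median log2 change of -0.16 and a range from -1.25 to 0.37. The others, Usp3, Usp12, Usp21, Usp22 and Usp49, had overlapping groups, and Usp22 itself read 385 to 608 in wild type and 232 to 762 in mutant samples (log2 change -0.03, limma adjusted p = 0.974).

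The third gene that fell was Usp50, a short family member that lacks a complete set of catalytic residues. It read 127, 113, 87.2 and 104 in wild type and 15.9, 46.5, 33.2 and 13.1 in mutant samples, and no mutant value came near the wild type range. The mean fell from 108 ± 16.6 to 27.2 ± 15.7 (SD, n = 4 each), 4.48-fold (log2 change -2.16, SE 0.427, limma adjusted p = 0.0211). Mutant replicates 1 and 4 lay under the background bound, so the size of this fall is uncertain. The mean log2 signal was 6.74 in wild type and 4.57 in mutant samples, where the dimmest tested probe set averaged 5.246 over all arrays. Usp50 was thus bright enough to be tested only through the wild type samples, and it also passed with no filter (limma adjusted p = 0.0337). The call stood without mutant replicates 3 and 4 (log2 change -1.97, limma adjusted p = 0.028) and without 1 and 2 (log2 change -2.35, limma adjusted p = 0.00133). It was lost without any 1 of the wild type samples or without mutant replicate 4 (limma adjusted p from 0.0505 to 0.0799). A second Usp50 probe set was too dim to test, at 4.9 to 46.9 in wild type and 3.1 to 17.5 in mutant samples.

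**Figure D3:**
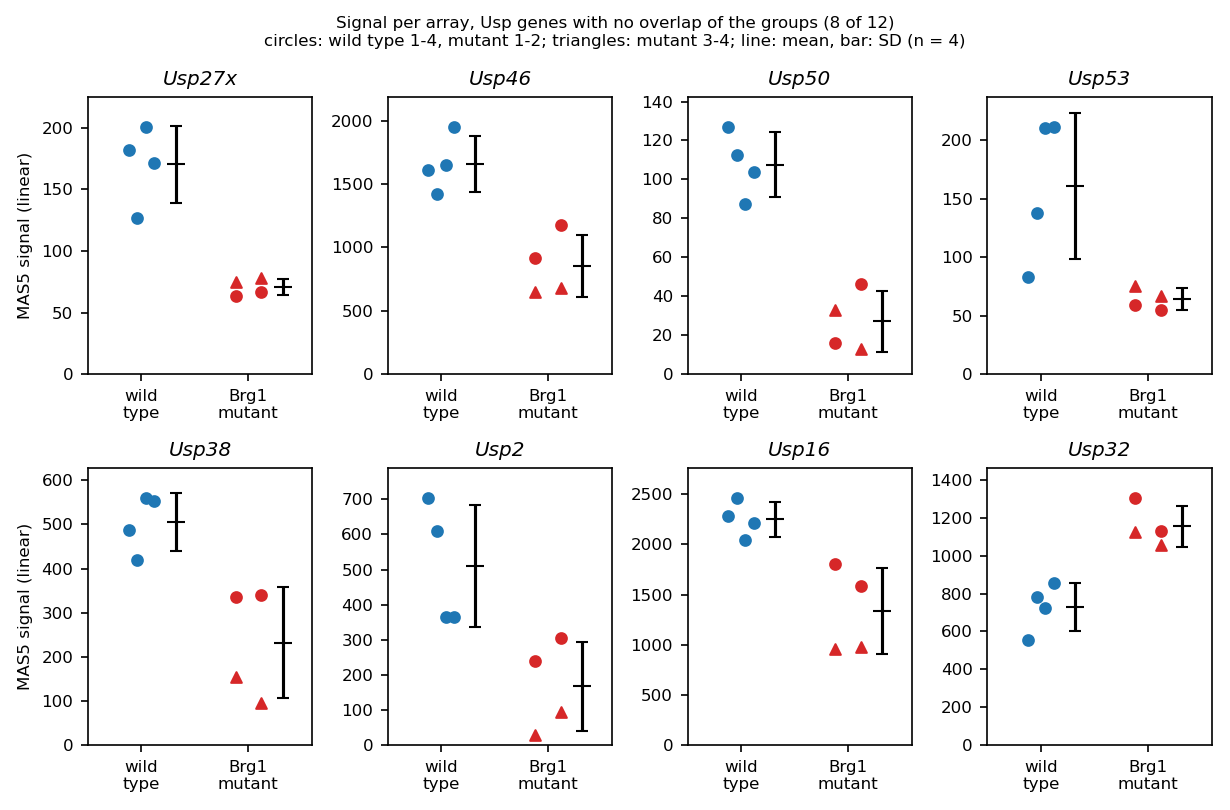
MAS5 signal on a linear scale (y axis) in wild type and Brg1 mutant samples (x axis) for 8 of the 12 Usp genes whose groups did not overlap; each point is 1 array, triangles are mutant replicates 3 and 4, and the line and bar are the mean and SD of 4 arrays. Usp32 alone is higher in the mutants, and for Usp46, Usp38, Usp2 and Usp16 the triangles lie below the mutant circles.

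The upstream sequences of the 3 genes that fell are shown to set their promoters beside each other, with that of Usp17la, a 2-cell gene described further on. Each is the 250 bases before the annotated start, from RefSeq (GRCm38.p6), 5′ to 3′ on the gene's strand. Capitals mark a GC box (GGGCGG or CCGCCC) or a CCAAT box (CCAAT or ATTGG).

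Usp27x, chrX:7375831-7376080, minus strand: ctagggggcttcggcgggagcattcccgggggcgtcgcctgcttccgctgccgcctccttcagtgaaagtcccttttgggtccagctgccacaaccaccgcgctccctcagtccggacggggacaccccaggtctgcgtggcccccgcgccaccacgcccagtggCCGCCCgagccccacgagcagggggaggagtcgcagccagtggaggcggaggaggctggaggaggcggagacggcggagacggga
Usp46, chr5:74068412-74068661, minus strand: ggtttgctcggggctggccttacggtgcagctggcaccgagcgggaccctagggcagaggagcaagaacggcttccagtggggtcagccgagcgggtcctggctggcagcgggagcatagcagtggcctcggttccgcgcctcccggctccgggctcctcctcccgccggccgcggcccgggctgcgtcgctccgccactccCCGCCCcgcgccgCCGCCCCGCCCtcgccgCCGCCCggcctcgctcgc
Usp50, chr2:126783461-126783710, minus strand: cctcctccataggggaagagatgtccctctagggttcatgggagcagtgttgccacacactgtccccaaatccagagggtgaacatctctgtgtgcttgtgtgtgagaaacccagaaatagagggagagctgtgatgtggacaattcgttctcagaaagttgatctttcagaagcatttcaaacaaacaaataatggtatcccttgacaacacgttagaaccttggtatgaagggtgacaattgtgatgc
Usp17la, chr7:104856766-104857015, plus strand: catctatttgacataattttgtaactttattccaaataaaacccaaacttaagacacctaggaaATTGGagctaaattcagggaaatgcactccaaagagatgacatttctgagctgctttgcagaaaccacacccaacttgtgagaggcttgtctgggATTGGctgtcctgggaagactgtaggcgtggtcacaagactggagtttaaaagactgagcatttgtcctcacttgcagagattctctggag

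Of the 3 promoters, those of Usp27x and Usp46 are rich in CpG and hold a GC box, and that of Usp50 is unlike them. A CCAAT box is in none of the 3. The window of Usp27x holds 24 CpG dinucleotides and 1 GC box and that of Usp46 holds 33 and 4, whereas that of Usp50 holds 2 and 0. The window of Usp17la holds 1 CpG, 0 GC boxes and 2 CCAAT boxes in reverse orientation. A TATA box (TATAAA or TTTATA) is in 0 of these 4 windows. Over all 32851 windows of this table, searched on both strands, 32.7% hold a GC box, 33.8% a CCAAT box and 12.4% a TATA box, and the median is 6 CpG. Windows were found for 38 member genes, 39 windows in all, of which 25 hold a GC box, at a median of 23 CpG. A match is a string of letters and not a binding site.

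Of 10 members tied to genome upkeep and the cell cycle, all tested, 0 passed in limma (3 lower and 0 higher at an unadjusted p under 0.05). Their log2 changes were negative for 8 and positive for 2, where 53.2% of all tested genes had a negative change, and their median was -0.49, with -0.18 without mutant replicates 3 and 4 and -0.66 without 1 and 2. Usp2, which acts on the p53 regulator MDM2 and on clock proteins, read 704, 611, 365 and 364 in wild type and 241, 305, 28.9 and 93.3 in mutant samples. The groups did not overlap, but the mutant samples spread over more than the wild type range on the log2 scale, and the change did not pass (log2 change -2.04, SE 0.643, limma adjusted p = 0.0816). It was -0.85 without mutant replicates 3 and 4 (limma adjusted p = 0.146) and -3.23 without 1 and 2 (limma adjusted p = 0.000616), and granulosa marker signal was high in the samples that read lowest. A second tested Usp2 probe set overlapped between groups (log2 change -1.08, limma adjusted p = 0.106). Usp37, a protease of cyclin A, read 858, 690, 963 and 969 in wild type and 685, 672, 337 and 388 in mutant samples. Its mutant replicates 1 and 2 were just below the lowest wild type sample (log2 change -0.80, limma adjusted p = 0.118; -0.35 and 0.385 without mutant replicates 3 and 4; -1.25 and 0.00122 without 1 and 2). Its second tested probe set overlapped between groups (log2 change -0.60, limma adjusted p = 0.215).

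Usp7, which removes ubiquitin from p53, MDM2 and the DNA methyltransferase DNMT1, was read by 7 tested probe sets. The brightest read 2747, 2137, 2983 and 2597 in wild type and 2346, 2041, 1597 and 1641 in mutant samples, overlapped between groups and did not pass (log2 change -0.46, limma adjusted p = 0.237). The change was -0.25 without mutant replicates 3 and 4 (limma adjusted p = 0.487) and -0.68 without 1 and 2 (limma adjusted p = 0.0116). One other probe set read 1119 to 1351 and 492 to 672 and passed (log2 change -1.11, limma adjusted p = 0.0191). Both are of the kinds, ending in _s_at and _x_at, whose probes may match several transcripts, and without such probe sets the brightest had no overlap between groups and did not pass (log2 change -0.82, limma adjusted p = 0.0589). The log2 changes of the remaining 5 ran from -0.82 to 0.33, and none of them passed (limma adjusted p from 0.0587 to 0.769). Usp47, which acts on DNA polymerase beta, showed a like split: the dimmer of its tested probe sets passed (log2 change -1.02, limma adjusted p = 0.0457), while the brightest changed by -0.21 on the log2 scale and did not (limma adjusted p = 0.615). Among the members read by several tested probe sets, 14 of 26 had changes of 1 sign and 12 of both signs. In all, 6 of 91 tested Usp probe sets passed (6.59%, against 6.56% of all tested probe sets, 3.58% lower), each of them lower.

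In the splicing and nucleolar group 0 of 4 members passed in limma (2 lower and 0 higher at an unadjusted p under 0.05). Usp39, a catalytically inactive family member that is a part of the spliceosome, read 2210, 2513, 1785 and 1894 in wild type and 1592, 1578, 1427 and 1211 in mutant samples. The groups did not overlap, and the change did not pass (log2 change -0.53, SE 0.22, limma adjusted p = 0.164; -0.39 and 0.283 without mutant replicates 3 and 4; -0.66 and 0.0188 without 1 and 2). Usp15, which acts on TGF-beta receptor signalling and on recycling spliceosome proteins, read 1133, 1107, 1086 and 1351 against 694, 986, 726 and 714. Mutant replicate 2 was the nearest to wild type (log2 change -0.59, limma adjusted p = 0.12; -0.49 and 0.22 without mutant replicates 3 and 4; -0.69 and 0.01 without 1 and 2). The log2 changes of the 4 tested Usp15 probe sets lay between -0.92 and -0.55, and 1 of them passed (log2 change -0.91, limma adjusted p = 0.0362). Usp4 and the nucleolar protease gene Usp36 completed this group with log2 changes of -0.40 and -0.01, and that of Usp36 was 0.17 without mutant replicates 3 and 4.

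Among members that act at membranes and organelles, Usp32 was the only one of the 45 tested members whose brightest probe set read higher in all 4 mutant samples than in all wild type samples. USP32 is a Golgi and endosome protein. Its gene read 555, 784, 723 and 856 in wild type and 1306, 1133, 1127 and 1055 in mutant samples, 1.6-fold higher in the mean of logs, and did not pass (log2 change 0.68, SE 0.22, limma adjusted p = 0.0893). The change was much the same without mutant replicates 3 and 4 (0.76, limma adjusted p = 0.0923) and without 1 and 2 (0.60, limma adjusted p = 0.0438). Its second tested probe set overlapped between groups (log2 change 0.40, limma adjusted p = 0.606). Usp19, which encodes a protease anchored in the endoplasmic reticulum, went the other way, from 1779, 1217, 1156 and 1391 to 925, 951, 863 and 919. The mutant values were nearly alike and all below wild type, yet the change did not pass (log2 change -0.58, limma adjusted p = 0.129; -0.54 and 0.188 without mutant replicates 3 and 4; -0.62 and 0.0369 without 1 and 2). The mitochondrial protease gene Usp30, the endosomal Usp8, and Usp20 and Usp33 overlapped between groups. Usp6nl did too (log2 change 0.86, limma adjusted p = 0.197; 0.23 and 0.708 without mutant replicates 3 and 4; 1.49 and 0.00305 without 1 and 2), although a dimmer tested Usp6nl probe set was higher in all 4 mutant samples (limma adjusted p = 0.0832).

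Usp38, a regulator of interferon signalling, read 488, 419, 560 and 553 in wild type and 336, 341, 155 and 96 in mutant samples. All mutant samples were lower, replicates 3 and 4 most of all (log2 change -1.30, limma adjusted p = 0.0731; -0.57 and 0.171 without these replicates, and -2.04 and 0.000263 without 1 and 2). Usp53, which encodes a tight junction protein of the family, read 82.8, 138, 211 and 211 in wild type and 59.3, 54.8, 75.7 and 67.2 in mutant samples. It was as low in mutant replicates 1 and 2 as in 3 and 4, and did not pass (log2 change -1.24, limma adjusted p = 0.0543; -1.40 and 0.0628 without mutant replicates 3 and 4; -1.07 and 0.0481 without 1 and 2). Its second tested probe set had a change of the opposite sign (log2 change 0.79, limma adjusted p = 0.165). The 3 members that handle free ubiquitin chains or dock on the proteasome, Usp5, Usp13 and Usp14, did not pass (log2 changes from -0.51 to -0.27, limma adjusted p from 0.278 to 0.689). Without mutant replicates 1 and 2, Usp5 passed at -0.74 (limma adjusted p = 0.0463) and Usp13 at -1.06 (limma adjusted p = 0.0394). The dimmer tested Usp14 probe sets had changes of the opposite sign to the brightest (log2 changes 0.20, 0.85 and 0.45) and did not pass. The one at 0.85 passed as higher without mutant replicates 1 and 2 (log2 change 1.54, limma adjusted p = 0.00634).

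For 5 of the 45 tested members, 11.1%, the mutant pairs lay on opposite sides of all wild type samples, as they did for 6.95% of all tested genes. Usp1, which removes ubiquitin from the repair proteins FANCD2 and PCNA, read 4097, 4461, 4852 and 4151 in wild type, 6963 and 7126 in mutant replicates 1 and 2, and 2868 and 2810 in replicates 3 and 4. On this probe set, the brightest of 3, no mutant sample was inside the wild type range. The log2 change was 0.03 with all samples (limma adjusted p = 0.971; negative under the 3 other scalings), 0.69 without mutant replicates 3 and 4 (limma adjusted p = 0.0407) and -0.63 without 1 and 2 (limma adjusted p = 0.0069). The other Usp1 probe sets disagreed on replicates 1 and 2: without 3 and 4 one changed by 0.72 on the log2 scale (limma adjusted p = 0.0588), and the other, at 623 and 554 against 592 to 765 in wild type, by -0.22 (limma adjusted p = 0.574). Usp17la, a gene of the cytokine-inducible DUB subfamily, read 2417, 2402, 4342 and 4117 in wild type, 6108 and 6469 in mutant replicates 1 and 2, and 1829 and 1601 in replicates 3 and 4. Wild type samples themselves fell into a lower and a higher pair, and the mutants lay outside both (log2 change 0.04 with all samples, limma adjusted p = 0.973, and negative under the 3 other scalings; 0.98 and 0.0654 without mutant replicates 3 and 4; -0.90 and 0.0257 without 1 and 2).

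Usp34, a protease of the Wnt pathway protein axin, read 1624 to 2828 in wild type, 2885 and 3361 in mutant replicates 1 and 2, and 1341 and 1472 in replicates 3 and 4. Its dimmer tested probe sets did not set the pairs fully on opposite sides. On one, mutant replicate 1 at 574.8 lay inside the wild type range of 463.5 to 741.6. On the other, mutant replicate 4 at 144.1 lay inside the range of 125.1 to 256.8. Usp21, Usp31 and Usp18 were singled out after their values were seen. Usp21 read 455 to 692 in wild type, then 706 and 1064, and 426 and 436. Usp31 read 289 to 361 in wild type, 677 and 861 in mutant replicates 1 and 2, and 297 and 334 in replicates 3 and 4, the last inside the wild type range. Its rise without mutant replicates 3 and 4 passed (log2 change 1.23, limma adjusted p = 0.0207). Usp18, which removes the interferon-induced modifier ISG15, went the other way. It read 41 to 66.7 in wild type, 24.7 and 36.5 in mutant replicates 1 and 2, both under the background bound, and 237 and 218 in replicates 3 and 4.

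Marker sums differed along the same split of the mutant samples, each carried by few genes. The summed signal of 6 transcripts of 2-cell embryos (Eif1ax, Tcstv1, Tcstv3, Zfp352, Pou5f1 and Hspa1b) was 7061 to 12046 in wild type, 13000 and 16158 in mutant replicates 1 and 2, and 4686 and 5152 in replicates 3 and 4. Zfp352 alone read 2315 to 4236, then 6477 and 9790, then 1408 and 1691. Without it the sum was 4746 to 7866 in wild type, 6523 and 6368 in mutant replicates 1 and 2, inside that range, and 3277 and 3461 in replicates 3 and 4. Eif1ax was lower in mutant replicates 1 and 2, at 590 and 527 against 1274 to 1440 in wild type. Blood and leukocyte markers summed to 930.1 and 979 in mutant replicates 3 and 4 and 382 to 488 in the other samples. In the former, where the bound was lowest, 8 of 8 genes were above it, and 4 to 8 in the latter. Cd52 carried most of that difference, at 360 and 453 against 19.7 to 48.2, and without it the sums were 570 and 526 against 362 to 465. The oviduct epithelium list summed to 1999 and 1943 in mutant replicates 3 and 4, with Krt8 at 555 and 619, and to 989 to 1430 in the others. The part of these lists in the values of Usp1, Usp17la, Usp34, Usp21, Usp31 and Usp18 was not tested.

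**Figure D4:**
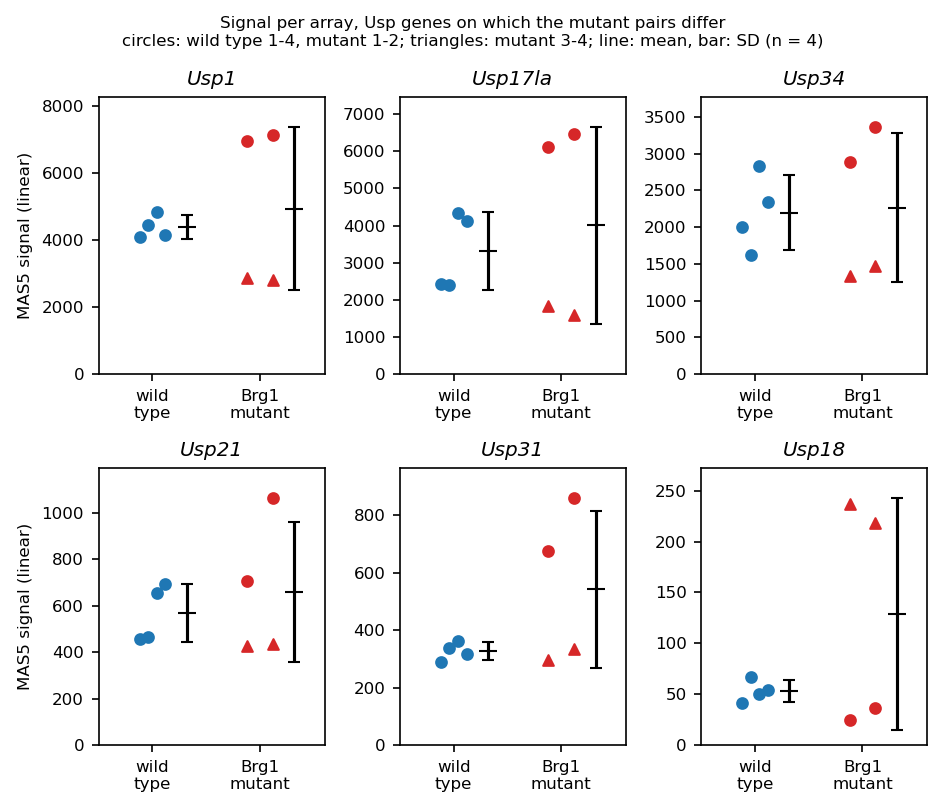
MAS5 signal on a linear scale (y axis) in wild type and Brg1 mutant samples (x axis) for 6 Usp genes on which the mutant pairs differ; each point is 1 array, circles in the mutant column are replicates 1 and 2, triangles are replicates 3 and 4, and the line and bar are the mean and SD of 4 arrays. Usp1, Usp17la, Usp34 and Usp21 have circles above and triangles below wild type, and Usp18 has them the other way round.

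The members too dim to test were Usp26, Usp29, Usp44 and Usp46os2. Usp26, known from the testis, read 18.1 to 25.8 in wild type and 2 to 42.3 in mutant samples. The imprinted gene Usp29 read 9.3 to 25.8 and 16.4 to 29.4, and Usp46os2 read 11.5 to 36.2 and 15.9 to 65.1. Usp44, a protease of the spindle checkpoint, read 4.2 to 11.2 and 1 to 5.3 and was under the background bound on all 8 arrays. The 26 tested members not described by their samples had log2 changes between -0.73 and 0.86, and none of them passed (limma adjusted p from 0.162 to 0.992).

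Among other genes of the ubiquitin system 1 passed. Of 11 tested partners of Usp proteins (adaptors of the SAGA module, WDR48 and its relatives, GMPS, STAM and G3BP proteins), 0 rose and 0 fell after adjustment (limma, with 3 lower and 0 higher at an unadjusted p under 0.05), at a median of -0.21. Wdr48 read lower in all mutant samples than in wild type without reaching the threshold (log2 change -0.89, limma adjusted p = 0.1; -0.87 and 0.158 without mutant replicates 3 and 4; -0.91 and 0.00218 without 1 and 2). The Wdr48 probe set ends in _x_at, and its mutant replicate 2, at 1619, was just below the lowest wild type value of 1627. G3bp1 also read lower in all mutant samples without passing (log2 change -0.75, limma adjusted p = 0.0814). Of 28 tested deubiquitinases outside the Usp names, 1 rose and 0 fell (limma, with 4 lower and 2 higher at an unadjusted p under 0.05), at a median of -0.22. The one that rose was Tnfaip3, an OTU-family enzyme that restrains NF-kappaB signalling. It read 27.9, 27.5, 34.8 and 44.1 in wild type and 146, 250.4, 78.6 and 111 in mutant samples, highest in mutant replicates 1 and 2 (log2 change 2.02, limma adjusted p = 0.0194; 2.54 and 0.00904 without mutant replicates 3 and 4; 1.5 and 0.00669 without 1 and 2). Wild type replicate 2 was under the background bound and replicate 1 just above it, so the size of this rise is uncertain. The mean log2 signal of Tnfaip3 was 5.04 in wild type and 7.06 in mutant samples, where the dimmest tested probe set averaged 5.246 over all arrays. It was thus bright enough to be tested only through the mutant samples, and it also passed with no filter. The Tnfaip3 call was lost without any 1 of the wild type samples, when 0 of the 28 passed. Of the others on this list, Mindy3, Pan2 and Cyld read lower and Cops5 higher in all mutant samples, without passing (limma adjusted p from 0.0504 to 0.346). Over all tested genes, 10.6% lay below wild type in this way and 8.1% above. Of 4 tested ubiquitin-like modifier and activating enzyme genes, 0 passed (limma, 1 lower and 0 higher at an unadjusted p under 0.05). Together 1 of 43 genes of these lists passed, 2.33%, against 7.04% of all tested genes.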

How the data were processed

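Per the labels' protocols, 20 embryos went into each sample's RNA, which was labelled as cRNA after a small-sample amplification. What the authors deposited is 1 intensity per probe set and array, on a linear scale, which the submitters' processing notes attribute to MAS5 without a version. Each array had a 2% trimmed mean of 150, and no scaling was added; a change in total RNA would therefore not be seen. Precision is limited by there being 4 arrays per group.

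Values below 1 were raised to 1 before taking log2. Of 45037 probe sets left without the 64 controls, the brighter 50% (22518, ranked on log2 signal averaged over arrays) were tested with limma 3.58.1 in R 4.3.3 (linear model, moderated with a trend on intensity, two-sided; Benjamini-Hochberg adjustment over all tested probe sets; threshold 0.05). Log2 changes are mutant minus wild type, errors are standard errors of the fit, and a fold is 2 to that power. Samples are replicates only as their labels say, so p-values measure the spread between them.

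By the platform annotation, 34945 probe sets carry 1 symbol, 932 several and 9160 none; 4 probe sets listing a Usp gene with another gene were not used. All 49 members matched RefSeq, 48 by gene identifier and 1 by symbol, with 0 symbols changed. The members, lists and roles were chosen with earlier results of these data known. Described by their samples were members that passed, the 10 with the smallest adjusted p, those without overlap, the 6 brightest in wild type, those whose probe sets disagree with 1 passing, and untested ones. Same-numbered wild type and mutant samples did not deviate together (r from -0.177 to 0.0242), so the numbers were not taken as pairs. Alternatives were 3 other scalings, 2 other filters, a pseudocount before log2, a replicate block, weights per array, a fit without the trend, removal of probe sets ending in _x_at or _s_at, gene means, and samples left out.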

Additional observations from a re-analysis of the deposited data

Results flagged for a closer look

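For 5 members (11.1%, against 6.95% of all tested genes) both mutant replicates 1 and 2 lay on one side of all wild type samples and both replicates 3 and 4 on the other. The mean log2 signal of replicates 3 and 4 minus that of replicates 1 and 2 was -1.31 for Usp1, -1.88 for Usp17la, -1.15 for Usp34, -1.01 for Usp21 and 2.92 for Usp18, whose signal in replicates 1 and 2 was under the background bound, so that 2.92 is no measured size. The difference was not tested, because the labels do not set the pairs apart.

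Single samples far from the other 3 of their group were Usp15 in mutant replicate 2 (signal 986, gap 0.871 of the group's log2 range) and Usp30 in wild type replicate 2 (signal 187, gap 0.849). Both pass the 95% critical value of Dixon's test for 4 samples; 90 groups were examined, and chance flags about 1 in 20.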

How the results depend on the processing

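The count of 3 Usp genes became 6 under median centring, 28 with array weights, 23 without mutant replicates 1 and 2, 1 with the mean of each gene's probe sets, and 0 to 7 with 1 sample left out. The count of 1 among the 43 other genes of the ubiquitin system (partners, other deubiquitinases, modifiers and activating enzymes together) became 4 under median centring, 3 under 75th percentile centring, with the upper 30% and without probe sets ending in _x_at or _s_at, 2 with the pseudocount, 23 with array weights, 5 without mutant replicates 3 and 4, 21 without 1 and 2, and 0 to 6 with 1 sample left out. The 1478 probe sets (807 lower, 671 higher) became 11486 with array weights, 9358 without mutant replicates 1 and 2, and 73 to 2926 with 1 sample left out. The split was 1557 lower and 421 higher under median centring and 1104 and 496 under 75th percentile centring. With a replicate block, which the pairing check does not back, 15 probe sets, 0 Usp genes and 0 of the other ubiquitin genes passed in limma (9 Usp genes lower and 2 higher at an unadjusted p under 0.05). The share of all tested genes at that unadjusted level in the block fit is not given here, so these 2 counts have no background beside them. The sign of Usp1 turned under quantile normalization (-0.22), median centring (-0.15), 75th percentile centring (-0.12), array weights (-0.53), the mean of its probe sets (-0.21) and without mutant replicates 1 and 2 (-0.63). That of Usp17la turned under the same scalings (-0.13, -0.14 and -0.11), array weights (-0.93) and without mutant replicates 1 and 2 (-0.90). Usp21 turned under median centring (-0.04), 75th percentile centring (-0.01), array weights (-0.43) and without mutant replicates 1 and 2 (-0.37), where Usp31 also turned (-0.05). Without mutant replicates 3 and 4, Usp18 (-0.80) and Usp34 (0.53) turned. With 1 sample left out, Usp1 ran from -0.19 to 0.25, Usp17la from -0.29 to 0.38, Usp21 from -0.13 to 0.31 and Usp34 from -0.27 to 0.17. The cause was not tested. The other 13 of the 19 members described by their samples kept their sign in every setting that could test them. Of the 26 other tested members, 14 changed sign in some setting and 11 passed in some setting. All 11 passed with array weights, where 11486 of 22518 tested probe sets passed. For neither count is the share over all tested genes given here, so they describe the settings and not the members. The median change of members was -0.31, -0.45 and -0.42 under quantile, median and 75th percentile scaling, against -0.14, -0.22 and -0.19 for all tested probe sets. The gene means were used for the Usp genes only. Dim signals near the background bound, as for Usp50, limit the size of a fall.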
